A study of Mus musculus with 9 samples.

Results

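The genes described here are 10 components of fibroblast growth factor (FGF) signalling that were measured in mouse cells sorted for an alpha-fetoprotein reporter. They are the receptors Fgfr1, Fgfr2, Fgfr3 and Fgfr4, the ligands Fgf5 and Fgf8, and the feedback inhibitors Spry4, Dusp4, Dusp6 and Il17rd. A gene was taken from probe sets whose only symbol in the platform annotation was its own, and the brightest probe set was kept. All 10 were measured, among 22180 genes in all, by 11 probe sets, of which 2 belong to Dusp6. By day 21, array signal had risen over day 4 by 9.91-fold for Fgfr2, 10.2-fold for Fgfr3 and 1.90-fold for Fgfr4. Fgfr3 and Fgfr4 were at background at day 4, so their folds are ratios of signal to a floor. Fgfr1, both ligands and all 4 feedback inhibitors had fallen.

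FGF ligands bind receptor tyrosine kinases at the cell surface together with heparan sulfate. The active receptors signal through Ras and a kinase cascade that ends in ERK, and ERK signalling raises transcripts of its own inhibitors, which is why sprouty and dual-specificity phosphatase transcripts are widely used as readouts of the pathway. In the early mouse embryo FGF signalling is known for separating primitive endoderm from epiblast and for its part in gastrulation.

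The 9 arrays fall into 3 groups of 3, taken at day 4, day 7 and day 21 of differentiation. In all groups the cells were mouse embryonic stem cells with an Afp::GFP transgene, in which the alpha-fetoprotein promoter drives green fluorescent protein. They were grown as embryoid bodies that attached to gelatin in IMDM with fetal bovine serum, penicillin and streptomycin, transferrin, ascorbic acid and PFHM, and Afp-expressing cells were collected by flow cytometry. No reporter-negative or unsorted cells are among these arrays, and the labels do not state whether the line is 1 clone. They also name no separate cultures behind the arrays of 1 day. The p-values therefore rest on the spread among these arrays alone, and that spread may be technical.

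Values are log2 signals, so a difference of 1 is a doubling of signal. As a reference for background, the 95th percentile of 1105 olfactory receptor genes was used, which averaged 6.06 at day 4, 6.06 at day 7 and 6.03 at day 21. The correlation of 2 arrays, taken across genes that are not independent of each other, was at least 0.984 within a day and at most 0.971 between days. Afp itself, the sorting marker, was at 5.72 ± 0.18 (SD, n = 3 arrays) at day 4, below that reference, at 10.60 ± 0.07 at day 7 and at 13.07 ± 0.11 at day 21. The cells labelled as sorted for Afp at day 4 thus had no Afp signal above the reference.

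Calls required an adjusted p under 0.05 in limma, with adjustment over all 22180 genes. Between days 4 and 7, 8 of the 10 genes were called, 3 higher and 5 lower, where 13.4% of all genes were called, 6.98% higher and 6.47% lower. Between days 7 and 21, 9 of the 10 were called, 3 higher and 6 lower, against 23.0% of all genes, 12.4% higher and 10.7% lower. Between days 4 and 21 all 10 were called, 3 higher and 7 lower, against 29.1% of all genes, 15.0% higher and 14.1% lower. The median log2 change of the 10 genes was -0.71, -0.68 and -1.19 in these comparisons, and that of all genes was -0.005, -0.035 and -0.030. Of the called genes in the table, 53.7% were higher at day 21 than at day 7 and 51.6% higher at day 21 than at day 4. Centring each array on its median gave 37.6% and 36.8%, and it lowered day 21 by 0.11 on average against day 4, while all 10 genes kept their direction and their side of the threshold. Over both intervals, Fgfr2 and Fgfr3 were called higher and then higher, as were 1.25% of all genes. Fgfr4 was called higher and then lower (2.66% of all genes), Dusp6 lower and then higher (2.37%), and Fgf5, Dusp4 and Il17rd lower and then lower (1.14%). The arrays of days 7 and 21 did not overlap for 9 of the 10 genes, as for 35.5% of all genes. The 3 comparisons share arrays and are not independent of each other. The 10 genes were chosen with earlier results of these data known, so the counts describe these genes.

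**Figure D1:**
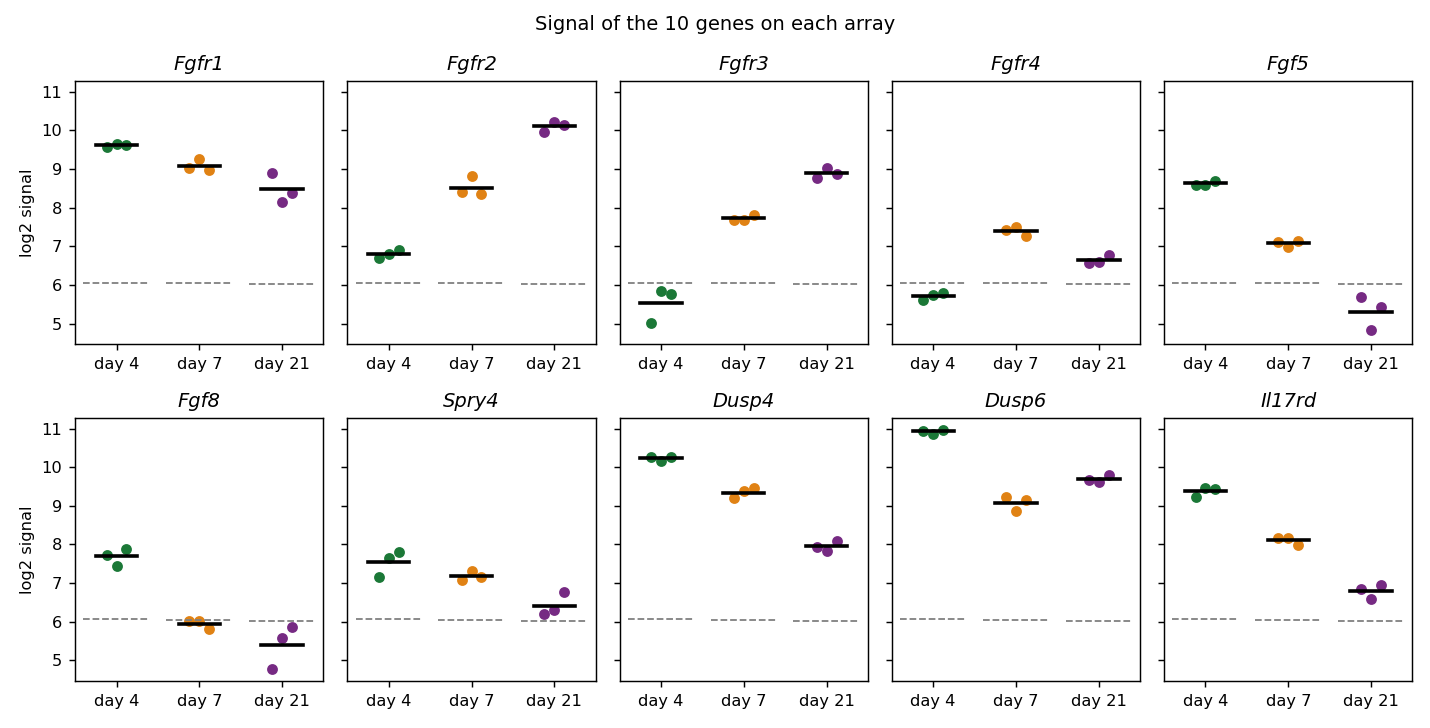
Log2 signal (vertical axis) of each of the 10 genes on the 9 arrays, by day of differentiation (horizontal axis); dots are arrays, black bars are means of 3 arrays, and dashed lines are the background reference of that day. Fgfr2 and Fgfr3 step upward, Fgf5, Dusp4 and Il17rd step downward, Fgfr4 is highest at day 7 and Dusp6 is lowest at day 7.

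The receptors did not move together. Fgfr2 and Fgfr3 rose in both intervals, Fgfr4 rose to day 7 and then fell, and Fgfr1 ended lower than it began. Fgfr2 (probe set 17496947), the receptor whose epithelial splice form answers ligands from mesenchyme (gene-level values do not separate splice forms), read 6.71, 6.80 and 6.90 on the day 4 arrays, 8.42, 8.81 and 8.35 at day 7, and 9.96, 10.23 and 10.15 at day 21. The 3 days did not overlap. Its log2 change was 1.72 ± 0.14 (SE) from day 4 to day 7, or 3.29-fold, with a limma adjusted p of 1.37e-05. From day 7 to day 21 it was 1.59 ± 0.14, or 3.01-fold (limma adjusted p = 1.37e-05).

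Fgfr3 (17436481), a receptor best known as a brake on bone growth, read 5.02, 5.84 and 5.76 at day 4, all below the background reference. It read 7.69, 7.69 and 7.82 at day 7 and 8.78, 9.03 and 8.88 at day 21, again with no overlap between days. The rise was 2.19 ± 0.19 in the first interval (limma adjusted p = 2.72e-05) and 1.16 ± 0.19 in the second (0.00116). Because day 4 lay below the reference, the 10.2-fold rise over both intervals is a ratio of signal to a floor.

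Fgfr4 (17287590), the receptor of the liver that with beta-klotho controls bile acid synthesis, read 5.61, 5.75 and 5.80 at day 4, 7.42, 7.50 and 7.27 at day 7, and 6.57, 6.60 and 6.77 at day 21. Day 7 was the highest and day 4 the lowest, with no overlap, and the day 4 arrays lay below the reference. The log2 change was 1.68 ± 0.11 to day 7 (3.19-fold, limma adjusted p = 2.93e-06) and -0.75 ± 0.11 from day 7 to day 21 (limma adjusted p = 4.87e-04). The net change from day 4 to day 21 was 0.93 ± 0.11, or 1.90-fold.

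Fgfr1 (17500108), the receptor through which epiblast and mesoderm cells of the gastrulating embryo respond, read 9.58, 9.64 and 9.63 at day 4, 9.04, 9.27 and 8.97 at day 7, and 8.89, 8.16 and 8.39 at day 21. Each later day lay below the earlier one, and the day 21 arrays were the most scattered (SD 0.37). The fall over the whole course was -1.14 ± 0.17, or 2.20-fold (limma adjusted p = 4.54e-04). In the first interval the change of -0.53 ± 0.17 did not pass (95% interval -0.90 to -0.16, limma adjusted p = 0.0658), although the groups did not overlap, as for 29.9% of all genes. It passed without day 21 array 1 (limma adjusted p = 0.0128) or array 2 (0.0403), and in the fit of days 4 and 7 alone (0.0138). In the second interval it was -0.61 ± 0.17 with a limma adjusted p of 0.0235. That call was lost, with limma adjusted p of 0.0528 to 0.0880, when day 7 array 1 or 2 or day 21 array 2 or 3 was left out, or (0.0627) when the fit held only the arrays of days 7 and 21.

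**Figure D2:**
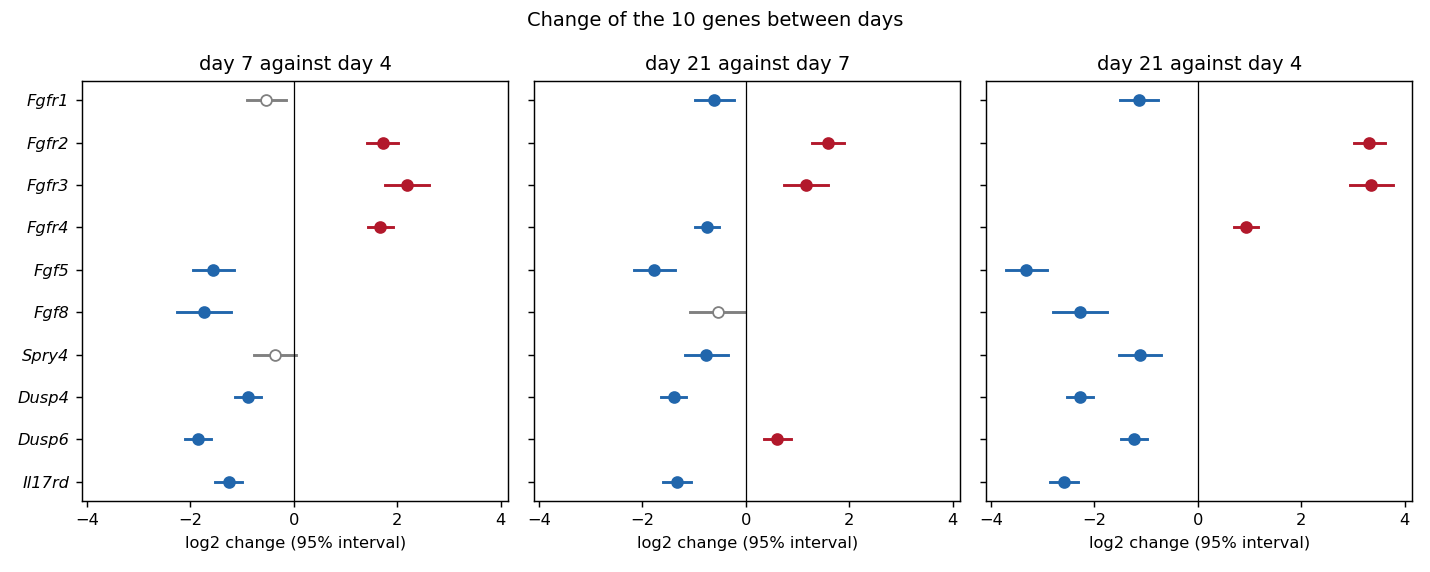
Log2 change (horizontal axis) of each gene in the 3 comparisons, with the 95% interval from limma as a line; red marks genes called higher, blue genes called lower, and open grey circles genes not called. Changes from day 4 to day 21 run from -3.32 (Fgf5) to 3.35 (Fgfr3), and each of these 2 is set against a mean below the background reference.

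Ratios of 2 receptors within an array show whether their probe sets changed unequally, not which transcript was more abundant. Fgfr3 and Fgfr4 lay below the background reference at day 4, so the day 4 value of each ratio that holds either of them is set in part by the floor, and so are its changes from day 4 and its test. The log2 ratio of Fgfr2 to Fgfr1 rose by 2.25 from day 4 to day 7 and by a further 2.20 to day 21, a total of 4.45. Relative to the day 4 mean it read 2.20, 2.35 and 2.20 at day 7 and 3.89, 4.88 and 4.58 at day 21, so that the days stood apart. The ratio of Fgfr3 to Fgfr1 rose by 4.49 in all. An exact permutation test of the day labels over 1680 arrangements gave p = 0.00357 for each of these ratios, the smallest that the design allows (adjusted p = 0.00714 over 6 pairs of receptors).

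The ratio of Fgfr4 to Fgfr3 changed by -1.91 from day 7 to day 21, when both receptors were above the reference. At day 4 both were below it, so the ratio is not read there. Its test over the 3 days is not read either, though it counts among the 6 pairs of the adjustment and so enters the adjusted p of the others. Fgfr4 to Fgfr1 rose by 2.21 to day 7 and changed by -0.14 after it, with an exact permutation p of 0.0357 (adjusted 0.0429). For Fgfr4 to Fgfr2 the change was -0.05 to day 7 and -2.34 after it, with an exact permutation p of 0.0321 (adjusted 0.0429). The ratio of Fgfr3 to Fgfr2 differed by 0.04 between days 4 and 21 and was not shown to change (exact permutation p = 0.143, adjusted 0.143), which does not show that the receptors kept pace, since Fgfr3 was at the floor at day 4. Its day means, relative to day 4, were 0.47 at day 7 and 0.04 at day 21, and the SD at day 4 was 0.38. Without day 4 array 1, the lowest Fgfr3 reading, the difference between days 4 and 21 was -0.17 (exact permutation adjusted p = 0.075).

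**Figure D3:**
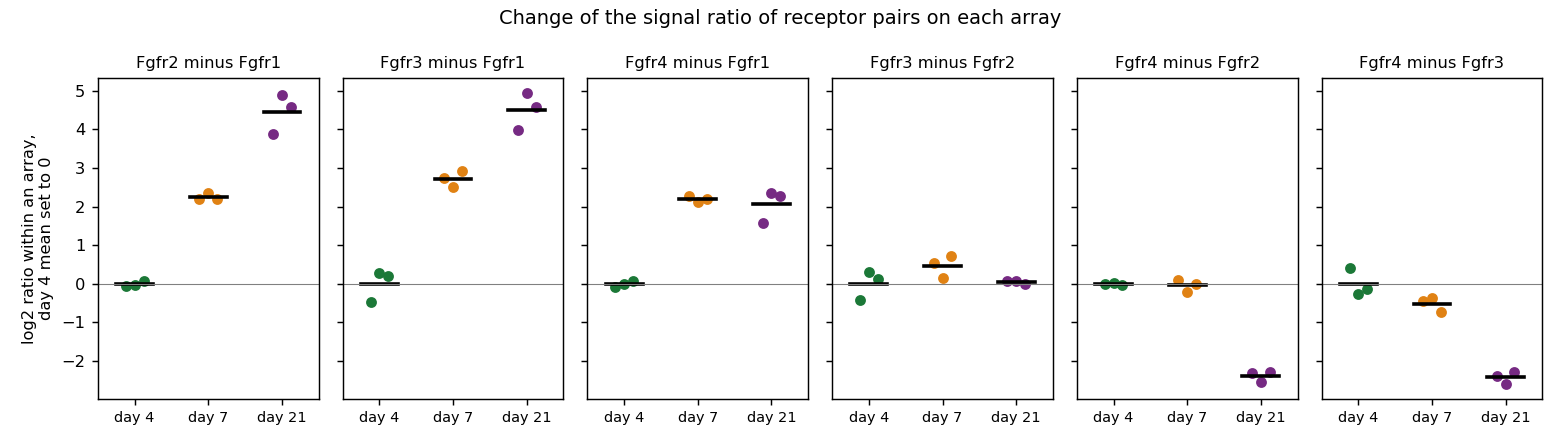
Log2 ratio of 2 receptors' signals within an array, set to 0 at the day 4 mean (vertical axis), by day (horizontal axis); dots are arrays and black bars means of 3. The ratios of Fgfr2 and Fgfr3 to Fgfr1 climb by 4.45 and 4.49. Day 4 points of ratios with Fgfr3 or Fgfr4 hold a signal below the background reference.

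Promoter windows from RefSeq (build GRCm38.p6), each holding 250 bases before the annotated start and 50 after it, were matched for 6 of the 10 genes, with 7 windows in all because Fgfr3 has 2. Fgfr2 and Fgfr3, the receptors that rose in both intervals, are shown because their starts differ in base composition. The 250 bases before the Fgfr2 start are chr7:130266809-130267058 on the minus strand and those before 1 Fgfr3 start are chr5:33721474-33721723 on the plus strand, both 5′ to 3′ with each CG pair in capitals.
Fgfr2: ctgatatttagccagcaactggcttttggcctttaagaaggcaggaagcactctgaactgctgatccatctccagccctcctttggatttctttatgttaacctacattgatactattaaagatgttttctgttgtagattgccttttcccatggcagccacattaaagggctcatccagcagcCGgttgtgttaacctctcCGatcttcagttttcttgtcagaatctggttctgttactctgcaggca
Fgfr3: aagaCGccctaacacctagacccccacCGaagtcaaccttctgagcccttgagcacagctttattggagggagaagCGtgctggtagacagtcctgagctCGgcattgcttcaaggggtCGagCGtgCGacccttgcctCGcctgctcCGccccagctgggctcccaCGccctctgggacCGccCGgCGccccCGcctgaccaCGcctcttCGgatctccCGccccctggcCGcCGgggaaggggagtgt
The Fgfr2 stretch holds 2 CG pairs and the Fgfr3 stretch 19. In the whole windows of 300 bases the counts were 4 and 26, with 43.7% and 69.7% of bases G or C. Over the 32851 promoter windows used, with 1 chromosome left out, the median was 7 CG pairs and 52.7% G or C.

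Both ligands fell. Fgf5 (17439517), a ligand of the late epiblast that later ends the growth phase of hair, read 8.60, 8.60 and 8.70 at day 4, 7.11, 6.98 and 7.15 at day 7, and 5.68, 4.84 and 5.43 at day 21. The 3 days did not overlap, and all day 21 arrays lay below the background reference. The change was -1.55 ± 0.18 to day 7 (2.93-fold lower, limma adjusted p = 2.06e-04) and -1.77 ± 0.18 from day 7 to day 21 (limma adjusted p = 4.94e-05). Over the course it was -3.32 ± 0.18, the largest fall among the 10 genes, and its size is set against a floor.

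Fgf8 (17365233), a ligand of the primitive streak that is needed for cells to leave it, read 7.73, 7.45 and 7.89 at day 4, 6.02, 6.02 and 5.82 at day 7, and 4.78, 5.58 and 5.86 at day 21. Day 4 stood apart, while days 7 and 21 overlapped, with both of their means below the reference. The change to day 7 was -1.74 ± 0.24 (3.33-fold lower, limma adjusted p = 6.03e-04). From day 7 to day 21 it was -0.55 ± 0.24 (95% interval -1.07 to -0.02, limma adjusted p = 0.133), a comparison of values at background. Without day 21 array 3 it was -0.77 (limma adjusted p = 0.0335), and without day 21 array 1, the lowest reading, it was -0.23 (0.367).

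The feedback inhibitors were all lower at day 21 than at day 4, by different routes. Il17rd (17298021), also known as Sef, is a membrane protein that restrains signalling from FGF receptors. It read 9.23, 9.46 and 9.44 at day 4, 8.18, 8.18 and 7.99 at day 7, and 6.84, 6.58 and 6.94 at day 21, with no overlap. Its log2 change was -1.26 ± 0.12 and then -1.33 ± 0.12 (limma adjusted p = 5.53e-05 and 2.12e-05), a 6.02-fold fall in all.

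Dusp4 (17500535), a nuclear phosphatase of ERK and related kinases, read 10.27, 10.15 and 10.26 at day 4, 9.19, 9.38 and 9.45 at day 7, and 7.94, 7.82 and 8.09 at day 21. It fell in both intervals with no overlap between days. The log2 changes were -0.89 ± 0.11 (limma adjusted p = 3.25e-04) and -1.39 ± 0.11 (8.18e-06), together a 4.86-fold fall.

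Dusp6 (17236882), a cytoplasmic phosphatase that acts mainly on ERK, read 10.93, 10.87 and 10.97 at day 4, 9.23, 8.86 and 9.16 at day 7, and 9.68, 9.61 and 9.79 at day 21. Day 7 was the lowest and day 4 the highest, with no overlap. The change was -1.84 ± 0.11 to day 7 (3.59-fold lower, limma adjusted p = 2.52e-06) and 0.61 ± 0.11 from day 7 to day 21 (1.53-fold higher, limma adjusted p = 0.00278). A second Dusp6 probe set (17547559), which read at most 6.30 on any array, gave 0.34 ± 0.17 for the later rise, which did not pass (limma adjusted p = 0.196).

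Spry4 (17353957), a sprouty protein that blocks the step from receptor to Ras and ERK, read 7.17, 7.66 and 7.80 at day 4, 7.07, 7.31 and 7.17 at day 7, and 6.19, 6.31 and 6.76 at day 21. Days 4 and 7 overlapped, and the change between them, -0.36 ± 0.19, did not pass (95% interval -0.77 to 0.05, limma adjusted p = 0.282). From day 7 to day 21 it fell by 0.76 on the log2 scale (SE 0.19, limma adjusted p = 0.0124), a call that was lost without day 21 array 1 (0.0512). The fall from day 4 to day 21 was 2.18-fold (limma adjusted p = 9.78e-04).

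The promoters were searched on both strands for CCGGAA, a form bound by factors such as Etv4 and Etv5 and called the ETS core here. Shorter stretches such as GGAA were not counted. The AP-1 site TGANTCA and the E-box CACGTG were the other motifs. Over the 32851 windows used, 14.9%, 7.81% and 7.15% held them. Among the 7 windows of the 10 genes, the ETS core was found once each in Fgfr4 and Fgf5, the E-box once, in Fgfr2 at base 29 after the start, and the AP-1 site in 0. The windows with an ETS core are shown before the start, 5′ to 3′ on the plus strand, at chr13:55152568-55152817 for Fgfr4 and chr5:98253934-98254183 for Fgf5, with the match in capitals.
Fgfr4: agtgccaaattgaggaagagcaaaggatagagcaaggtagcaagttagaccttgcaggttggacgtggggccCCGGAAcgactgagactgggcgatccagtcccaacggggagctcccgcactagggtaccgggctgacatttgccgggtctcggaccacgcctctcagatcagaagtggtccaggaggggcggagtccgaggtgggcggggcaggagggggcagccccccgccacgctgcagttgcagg
Fgf5: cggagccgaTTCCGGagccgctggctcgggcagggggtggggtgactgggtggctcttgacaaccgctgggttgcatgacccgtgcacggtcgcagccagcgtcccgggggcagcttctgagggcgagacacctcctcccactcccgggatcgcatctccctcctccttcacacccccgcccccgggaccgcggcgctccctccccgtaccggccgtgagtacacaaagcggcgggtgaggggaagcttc
Counted from the start, the match begins at base -178 of Fgfr4 on the plus strand and at base -241 of Fgf5, where the minus strand carries CCGGAA. The 2 genes moved in opposite directions from day 4 to day 21. Windows of Dusp6 and Il17rd held none of the 3 motifs in these letters, though both hold GGAA. A match in these letters is a description and not a bound site.

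Other genes of the pathway were read from a list of 64, of which 57 had a probe set with that single symbol. The others were not analysed here. Between days 4 and 7, 9 of the 57 rose, 11 fell and 37 did not pass. Between days 7 and 21, 11 rose, 12 fell and 34 did not pass. From day 4 to day 21 the counts were 13, 18 and 26. That is 35.1%, 40.4% and 54.4% called, against 13.4%, 23.0% and 29.1% of all genes. The median log2 changes of the list were -0.002, -0.07 and -0.05, beside -0.005, -0.035 and -0.030 for all genes.

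Of 16 other FGF ligands, 0 rose by limma in any comparison, and 2, 4 and 6 fell in the order given above, where 2, 5 and 6 had an unadjusted p under 0.05 in either direction. The shares called were 12.5%, 25% and 37.5%, against 13.4%, 23.0% and 29.1% of all genes, so the first 2 lay near those of all genes. Fgf10, a ligand of lung and limb mesenchyme, had the largest fall, -1.75 ± 0.15 from day 4 to day 21 (6.58 ± 0.04 to 4.83 ± 0.30, the latter below background). Fgf15, the gut hormone that acts on the liver, changed by -1.04 and Fgf3 by -0.75 over the same course, both to day 21 means below background. From day 7 to day 21, Fgf17 changed by -0.50 and Fgf22 by -0.43, the latter to a mean below background. The other called falls in that interval, of Fgf10 and Fgf4, compare means below background on both days. Fgf4 was below it at day 4 as well. At day 4, 8 of the 16 lay above the reference, and at day 21, 4 did.

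Of 5 co-receptors and related membrane proteins, 3 rose by day 7 and 0 fell, and 4 were higher at day 21 than at day 4. The shares called were 60% and 80%, against 13.4% and 29.1% of all genes. Klb, beta-klotho, the partner of Fgfr4 in binding endocrine FGFs, read 4.55, 4.83 and 4.78 at day 4, 7.67, 7.10 and 7.10 at day 7 and 7.46, 7.33 and 7.14 at day 21. It thus came above the reference at day 7 with Fgfr4 (2.57, limma adjusted p = 3.16e-06) and stayed there when Fgfr4 fell. Fgfrl1, a receptor-like protein without a kinase domain, rose by 1.20 to day 7 and changed by -0.44 after it. Its 3 day 21 arrays held the same value, 8.72. Flrt3, a transmembrane protein that binds FGF receptors, rose by 0.85 to day 7, and its relative Flrt2 rose by 2.10 from day 7 to day 21.

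Of 8 adaptors of the cascade, 0 were called by limma between days 4 and 7, and 0 had an unadjusted p under 0.05. Of all genes 13.4% were called there. After day 7, 37.5% of the adaptors were called, against 23.0% of all genes. From day 7 to day 21, Gab1, a docking protein, rose by 0.81, Sos2, an exchange factor for Ras, rose by 0.44, and Plcg1, a phospholipase, changed by -0.48. Ptpn11, the phosphatase Shp2, changed by -0.38 from day 4 to day 21 (limma adjusted p = 0.0411). Of 5 kinases and Ras genes, Braf rose by 0.52 to day 7 and changed by -0.85 after it, and Araf rose by 0.39 to day 7. The shares of these 5 called were 40% to day 7 and 20% after it.

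Of 12 other feedback genes, 5 fell and 1 rose by day 7, and 5 were lower and 2 higher at day 21 than at day 4. The shares called were 50% and 58.3%, against 13.4% and 29.1% of all genes. Spry2 fell by 0.92 on the log2 scale to day 7 and by 1.25 over the course. Spred1, a membrane-bound inhibitor of Ras signalling, changed by -0.89 and -1.15 in the same comparisons, and Spred3 by -0.46 and -0.88. Rasa1, a GTPase-activating protein of Ras, changed by -0.68 to day 7. Against these, Spry1 rose by 0.47 to day 7, and Spry3 rose from a mean of 5.12 at day 7 to 6.12 at day 21, the one day on which its mean passed the reference. Dusp9, another ERK phosphatase, changed by -0.38 to day 7 and rose by 0.60 after it, the order of signs seen for Dusp6.

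The last list held 11 transcription factors and other genes downstream of ERK, some known as transcripts that ERK signalling raises and some, Elk1 and Elk4, as factors that ERK phosphorylates. Of the 11, 3 rose and 4 fell by day 7, and 5 were higher and 5 lower at day 21 than at day 4. The shares called were 63.6% and 90.9%, against 13.4% and 29.1% of all genes. Etv1, Etv4 and Etv5, which form 1 subfamily of ETS factors, were all lower at day 21 than at day 4. Etv4 read 7.85, 7.76 and 7.96 at day 4, 7.16, 7.16 and 7.17 at day 7, and 5.93, 5.99 and 5.76 at day 21, where it lay below the reference. Etv5 read 9.79, 9.81 and 10.05, then 9.93, 10.05 and 9.80, then 7.60, 7.79 and 7.73, so that days 4 and 7 overlapped and the fall came after day 7 (-2.22, limma adjusted p = 3.21e-07). Etv1 changed by -1.22 over the course, to a day 21 mean of 5.94, below the reference. Of the other ETS factors on the list, Elk4 rose by 1.10 from day 7 to day 21 and Elk1 changed by -0.45.

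Egr1 and Fos rose in both intervals. Egr1, a zinc finger factor, read 8.08, 8.16 and 8.19 at day 4, 8.99, 9.12 and 8.83 at day 7, and 9.98, 9.94 and 9.76 at day 21. Fos, a subunit of AP-1, read 6.53, 6.57 and 6.48, then 7.32, 7.24 and 7.37, then 8.48, 8.42 and 8.53. Their log2 changes from day 4 to day 21 were 1.75 and 1.95 (limma adjusted p = 1.12e-06 and 1.35e-07). Phlda1 rose by 1.15 to day 7. Ier3 was not called in that interval (0.11, limma adjusted p = 0.805) and rose by 1.24 from day 7 to day 21. Its means at days 4 and 7, 5.68 and 5.79, lay below the reference, so the size of that rise is set against a floor. Ccnd1, cyclin D1, changed by -1.73 to day 7 and rose by 1.58 after it, and Myc changed by -0.93 and then rose by 0.39, both lowest at day 7 as Dusp6 was.

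**Figure D4:**
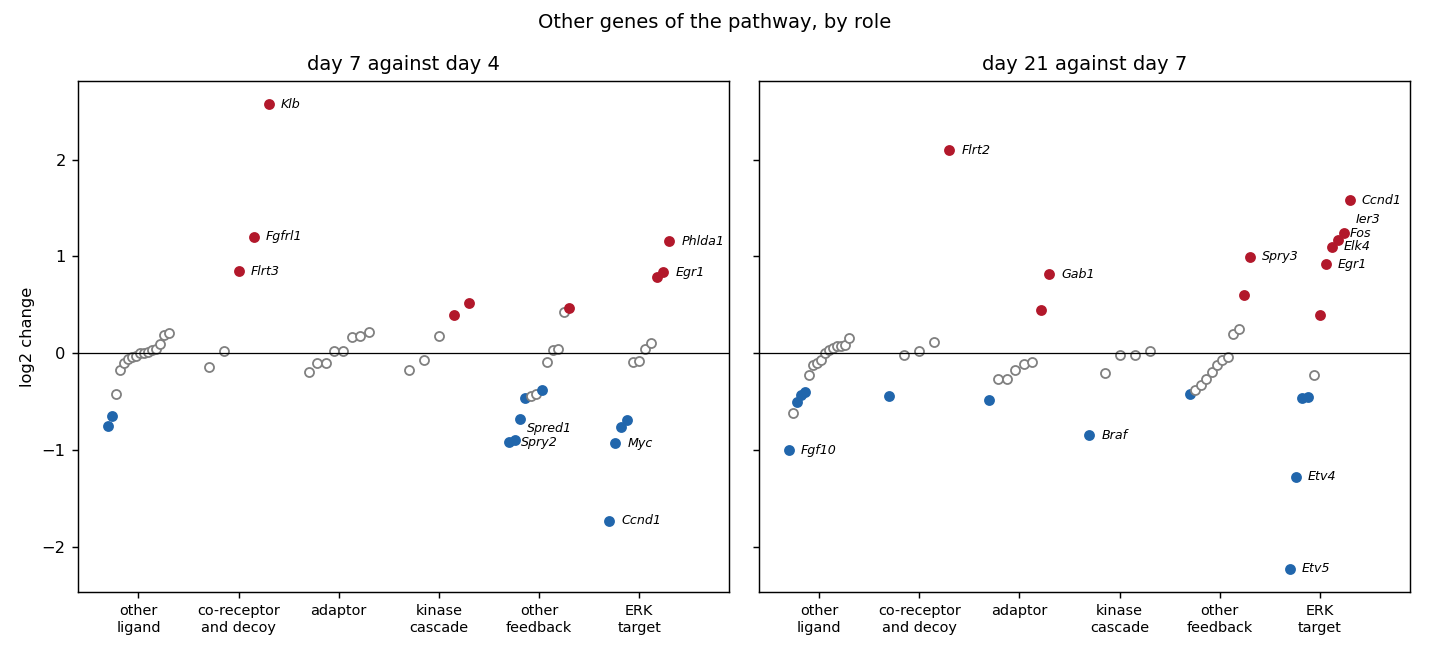
Log2 change (vertical axis) of 57 other pathway genes by role (horizontal axis) from day 4 to day 7 and from day 7 to day 21; red dots were called higher, blue lower and open circles not called, and called genes with a change of at least 0.8 are named. Klb at 2.57 and Flrt2 at 2.10 are the largest rises, and Etv5 at -2.22 is the largest fall.

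Markers of cell types that the sort could hold were read on the same arrays as the mean log2 signal of a list. Beside the counts of called markers stand the shares of all genes called, 13.4%, 23.0% and 29.1% in the order given above. Of 12 visceral endoderm markers, 11 rose by day 7 and 10 fell and 1 rose after it. The list ran from 6.68 to 6.86 at day 4, from 9.90 to 9.99 at day 7 and from 9.18 to 9.20 at day 21, so it was highest at day 7, as was Fgfr4. The cardiac muscle and endothelial lists were also highest at day 7, and Afp, a member of the visceral endoderm list, was highest at day 21. At day 4, Afp, Apoa1, Cubn and Ttr lay below the reference, and at days 7 and 21 none of the 12 did. Of 9 epiblast and primitive streak markers, 5 fell and 1 rose by day 7, and 9 were lower at day 21 than at day 4. Their mean ran from 8.99 to 9.09, from 7.57 to 7.73 and from 5.68 to 6.02, stepping down with Fgf5, Dusp4 and Il17rd. Eomes, Lhx1, Mixl1 and Tdgf1 were below the reference at day 21, and Mesp1 on every day.

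Of 9 basal and squamous epithelial markers, 8 rose from day 7 to day 21, with a mean of 6.28 to 6.56 at day 4, 6.24 to 6.36 at day 7 and 9.32 to 9.45 at day 21. Between days 4 and 7, 0 of them rose by limma, 1 fell and 3 had an unadjusted p under 0.05 in either direction. The share called was 11.1% there, near the 13.4% of all genes, and 88.9% after day 7, against 23.0% of all genes. Of 9 hepatocyte markers, 0, 3 and 5 were above the reference on the 3 days, and Cyp2e1, Cyp3a11, Serpina1a and Tat were below it throughout. Of 10 mesenchyme markers, 9 rose from day 7 to day 21. Their mean was 6.83 to 6.87 at day 4 and 6.14 to 6.34 at day 7, and at day 21 it was 9.65, 9.14 and 8.75 on arrays 1 to 3, the widest spread of the lists shown in the plot of markers. On those arrays Fgfr1 read 8.89, 8.16 and 8.39, so the array with the highest mesenchyme mean also had the highest Fgfr1 and the order of the other two differed.

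Cardiac muscle markers averaged 6.60 to 6.69 at day 4, 7.50 to 7.57 at day 7 and 6.89 to 6.99 at day 21. Of 10, 5 rose and then 5 fell. Of 10 endothelial markers, 3 rose and 1 fell by day 7, and 0 rose and 4 fell after it. Of 9 neural markers, 2 rose and 2 fell by day 7, and 1 rose and 2 fell after it. Of 9 leukocyte markers 1 rose by day 7 and 3 after it, with Ptprc, Adgre1 and Cd3e among the 6 below the reference on every day. Cd68 was above it on every day, with means of 8.36, 9.26 and 9.36, and Csf1r and Laptm5 were above it at day 21 alone, at 7.42 and 7.11. Of 8 trophoblast markers, 0 were called by limma between days 4 and 7, where 0 had an unadjusted p under 0.05. From day 7 to day 21, 1 of them rose and 1 fell, and 7 of 8 lay below the reference on each day. Shares called by day 7 and after it were 50% and 50% for cardiac muscle and 40% and 40% for endothelium. They were 44.4% and 33.3% for neural and 11.1% and 33.3% for leukocyte markers, and 25% for trophoblast after day 7. For all genes they were 13.4% and 23.0%, so leukocyte markers by day 7 and trophoblast markers after it lay near the share of all genes. The part of any of these cell types in the changes of the FGF genes was not tested. In sorted pools, fewer cells of a type and less RNA per cell cannot be told apart.

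**Figure D5:**
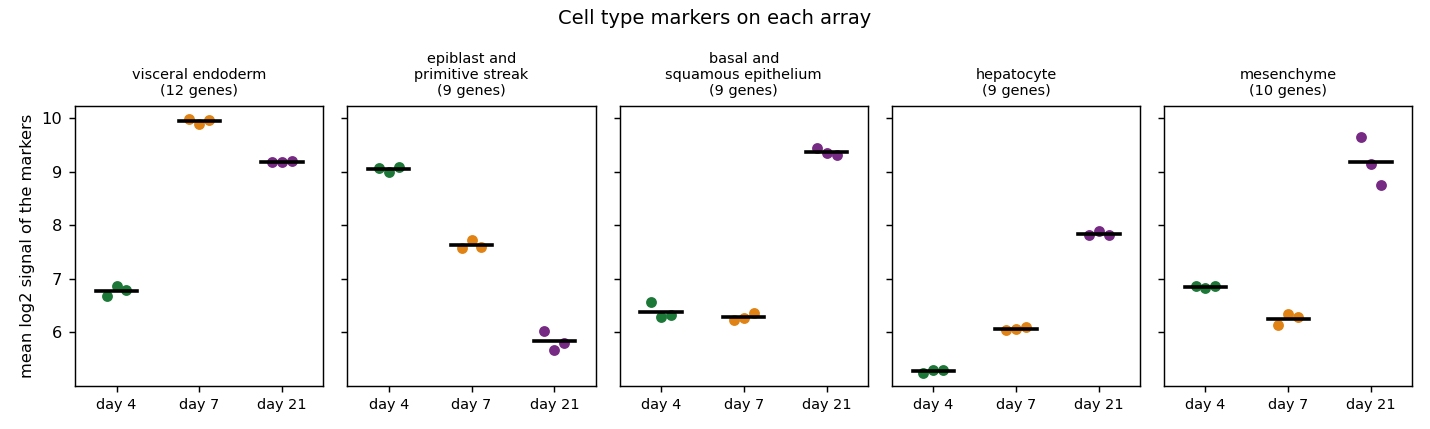
Mean log2 signal (vertical axis) of 5 lists of cell type markers on each array, by day (horizontal axis); dots are arrays and black bars means of 3 arrays. Visceral endoderm markers are highest at day 7 (9.90 to 9.99), epiblast and primitive streak markers step down from 8.99 to 9.09 at day 4, and mesenchyme markers are spread from 8.75 to 9.65 at day 21.

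Patterns were compared among 12252 genes above the reference on at least 1 day. The 10 genes themselves and genes without a usual symbol, such as Gm, LOC, Rik and microRNA names, were left out. From the rest, the 2 with the pattern most like each of the 10 were found by Pearson correlation over the 9 arrays. These arrays fall into 3 days, so r mostly reflects the day means. The syndecan gene Sdc4 (r = 0.995), which encodes a heparan sulfate proteoglycan, and H2-Ke6 (0.995) were most like Fgfr2. Sdc4 rose by 1.32 and then by 1.31. The forkhead gene Foxq1 (r = 0.998) and Sgpp2 (0.991), a phosphatase of sphingosine 1-phosphate, were most like Fgfr3. Pdia5 (r = 0.995) and the endoderm factor Sox17 (0.994) were most like Fgfr4, with Sox17 rising by 1.47 and then changing by -0.63. Fam171b (r = 0.982) and Pea15a (0.979) were most like Fgfr1.

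The homeobox gene Lhx1 was among the 2 closest to both Fgf5 (r = 0.996) and Il17rd (0.997). It changed by -2.72 and then by -2.74, and it is also 1 of the 9 epiblast and primitive streak markers above. The other closest genes were Dpysl5 for Fgf5 (0.994) and F5, coagulation factor V, for Il17rd (0.997). Smarce1 (r = 0.993) and Ino80e (0.987) were most like Fgf8. E2f7 (r = 0.998) and Asns, asparagine synthetase (0.996), were most like Dusp4. Tapbp (r = 0.992) and Tnfrsf19 (0.989) were most like Dusp6, and like it both fell to day 7 and rose after it. Dtymk (r = 0.986) and Cdt1, a replication licensing factor (0.984), were most like Spry4.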

How the data were processed

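Each deposited value is a log2 signal of 1 probe set. The submitters' processing notes name Affymetrix Expression Console and RMA as the authors' tools and give no role or version for them. Per the labels' protocols, total RNA was amplified and labelled with a kit for very small inputs, which can distort ratios of dim transcripts. RMA usually gives arrays a like distribution, which hides a change common to most transcripts. Precision is limited by the number of arrays. Values ran from 1.62 to 13.98, and 0 pairs of arrays were identical. Of 34365 probe sets, 23521 had 1 symbol, 1814 several and 9030 none here. The brightest probe set per gene was kept, which left 22180 genes.

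Using limma 3.58.1 under R 4.3.3, lmFit and eBayes estimated 1 mean per day from the 9 arrays together, and two-sided p-values received Benjamini-Hochberg adjustment over all genes. The procedure was tested on simulated data. Receptor ratios were tested by exact permutation of the days with an F statistic. Promoter sequences are from RefSeq. The 10 genes and the lists were chosen with earlier results of these data known. Named genes are all 10, up to 3 called pathway genes per role and direction, and the 2 closest patterns per gene. Alternatives were other scalings, variance models, filters, probe set rules, a replicate block, a stricter threshold and leaving out each array.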

Additional observations from a re-analysis of the deposited data

How the results depend on the processing

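Under the other settings tried, the counts of called genes among the 10 stayed between 8 and 9 from day 4 to day 7, between 7 and 9 from day 7 to day 21, and at 10 from day 4 to day 21; leaving out each array in turn gave 8 to 9, 8 to 9 and 10. A threshold of 0.01 left 1762 called genes at day 7 against day 4, 3297 at day 21 against day 7 and 14 of the other pathway genes at day 21 against day 7. Leaving out each array gave 2176 to 3285, 4108 to 5048 and 5423 to 6255 called genes in the 3 comparisons, and 15 to 20, 17 to 21 and 27 to 30 of the other pathway genes. Fgfr1 from day 4 to day 7 was called by limma in the fit of those days alone (adjusted p = 0.0138), with a variance trend and the robust option of eBayes together (0.0384), without dim genes (0.0304), and without day 21 array 1 (0.0128) or 2 (0.0403). The change of Fgfr1 was -0.53 in each of these fits, as in the main fit. Its SE was 0.168 in the main fit and 0.103, 0.155, 0.161, 0.112 and 0.143 in these fits, in the order given. The ratio of Fgfr3 to Fgfr2 from day 4 to day 21, which was not called, turned to -0.17 without day 4 array 1 (exact permutation adjusted p = 0.075), and leaving out each array gave -0.17 to 0.193. No change of the 10 genes reversed. Of 9 same-number pairs of arrays, 2 deviated together at r over 0.1, both between days 7 and 21 (r = 0.139 and 0.263). Each day 7 array correlated best with its own number at day 21 (r = 0.078 for number 1). No such order was seen in the pairs with day 4, and whether the arrays of days 7 and 21 were paired was not tested. With the replicate block 8, 9 and 10 of the 10 genes were called, the same counts, and 2895, 5041 and 6413 genes in all. The dimmer Dusp6 probe set was an alternative chosen after seeing the data. Means below the background reference (Fgfr3 and Fgfr4 at day 4, Fgf8 at days 7 and 21, Fgf5 at day 21) limit the sizes of those changes.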
